A study of Homo sapiens with 12 samples.

Results

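The proteasome is the large protease that degrades proteins tagged with ubiquitin. Its barrel-shaped core particle is built from outer rings of alpha subunits and inner rings of beta subunits, and the active sites lie inside the barrel on a few of the beta subunits. A regulatory particle caps the barrel, with a base of ATPases that unfold substrates and a lid that removes ubiquitin, and dedicated chaperones help each piece assemble and then leave the finished complex. Human cells make these subunits and chaperones from genes whose symbols start with PSM, and the mRNAs of those genes were followed here while transcription was blocked.

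The genes were taken as symbols of the form PSMA to PSMG followed by a number, with at least 10 counts in at least 3 of the 12 libraries. The count table held 48 such symbols among 26334 genes, and 45 met the rule. They were 7 alpha subunits, 7 standard beta subunits, 2 immune beta subunits, 9 subunits of the base, 8 of the lid, 5 activators or inhibitors of the core particle and 7 assembly chaperones. The other 3 symbols were PSMA8, an alpha subunit of the testis, with no count in any library, PSMB11, the beta subunit of the thymus, with at most 1 count in a library, and PSMB9, an immune beta subunit, with 4 to 10 counts. The 45 genes together took 0.707% to 0.786% of the counts of a library.

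The libraries were made from polyadenylated RNA of shA673-1c cells, which derive from the Ewing sarcoma line A673 and carry an inducible short hairpin RNA. All 12 libraries came from cells kept for 4 days in 1 µg/ml doxycycline, which switches the hairpin on to deplete the fusion oncogene EWS::FLI1, in medium that also held blasticidin and zeocyn. The cells were then exposed to 5 µM actinomycin D, which blocks transcription, for 0, 1, 2 or 4 h, with 3 biological replicates at each time. No library analysed here came from cells without doxycycline or from cells held for the same hours without actinomycin D, so these libraries carry no measure of how far the fusion was depleted, and the drug and the time in culture cannot be told apart. FLI1, the 3′ partner of the fusion, stood at 19.8, 19.9 and 21.7 CPM (counts scaled to a common library size) at 0 h, 19.0, 14.8 and 10.4 CPM at 1 h, 13.4, 10.9 and 9.08 CPM at 2 h and 8.16, 7.01 and 7.10 CPM at 4 h. Of 10 genes listed as markers of Ewing sarcoma cells, 9 were detected well enough to be tested, and the surface marker CD99 was listed at 0 in every library. Of 12 markers of other cell types, 8 were too low to test and averaged at most 0.469 CPM of raw totals, while the keratin gene KRT18 averaged 491 CPM. The summed level of those 12 markers was 461 to 594 CPM at 4 h, against 409 to 595 CPM at 0 h, and the keratin gene KRT8, also of that list, was itself called higher at 4 h under TMM scaling, with 35.1, 40.4 and 33.0 CPM at 4 h, against 25.6, 24.7 and 24.8 CPM at 0 h (log2 change 0.53, edgeR adjusted p = 0.009119; 0.16 and not called with ribosomal protein scaling). The part of these markers in the results was not tested. Library totals lay between 9381855 and 10929000 counts.

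The labels mention no RNA added as an external standard, so a level is a share of the mRNA in the library, and a value above that at 0 h is a larger share and does not mean that more of the mRNA was present in a cell. CPM use library sizes scaled by the TMM method, and a gene was called higher or lower when edgeR's quasi-likelihood test gave an adjusted p under 0.05 over 12775 genes.

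After 4 h of actinomycin D most proteasome mRNAs made up a larger share of the remaining mRNA than at 0 h under TMM scaling, and a small set that included assembly chaperones made up a smaller one. Of the 45 genes, 29 were called higher and 3 were called lower at 4 h against 0 h, where 23.3% of all genes tested were called higher and 24.6% lower. The higher count fell to 18 without 0 h replicate 2, to 19 without all libraries of replicate 1 and to 14 without all libraries of replicate 2. The 3 lower genes were PSMD5, PSMD12 and PSMG2. Each other scaling tried put the median of all genes below that under TMM, so it could not turn the direction of these 3. The direction of the rise depended on the scaling. The median log2 change of the 45 genes was 0.21 under TMM scaling and 0.056 with raw library totals. It was -0.17 when libraries were scaled to the mRNAs of cytosolic ribosomal proteins, which are known to be long-lived. The median of all genes moved with it, standing at 0.054, -0.096 and -0.32 in the same order. The median of the proteasome genes lay 0.15 above the median of all genes under each of these scalings. A scaling moves all genes by nearly the same amount, so this difference could not depend on it. With the replicate number as a term of the model, 32 of the 45 genes were called higher and 4 lower, where 34.8% and 30.8% of all genes were. Library totals gave 11 higher and 8 lower, where 10.5% and 31% of all genes were, and ribosomal protein scaling gave 0 higher and 20 lower, where 1.21% and 45.7% were. In the libraries themselves, 29 of the 45 genes had all 3 values at 4 h above all 3 values at 0 h and 4 had all 3 below, which 27.9% and 27.5% of all genes did.

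**Figure D1:**
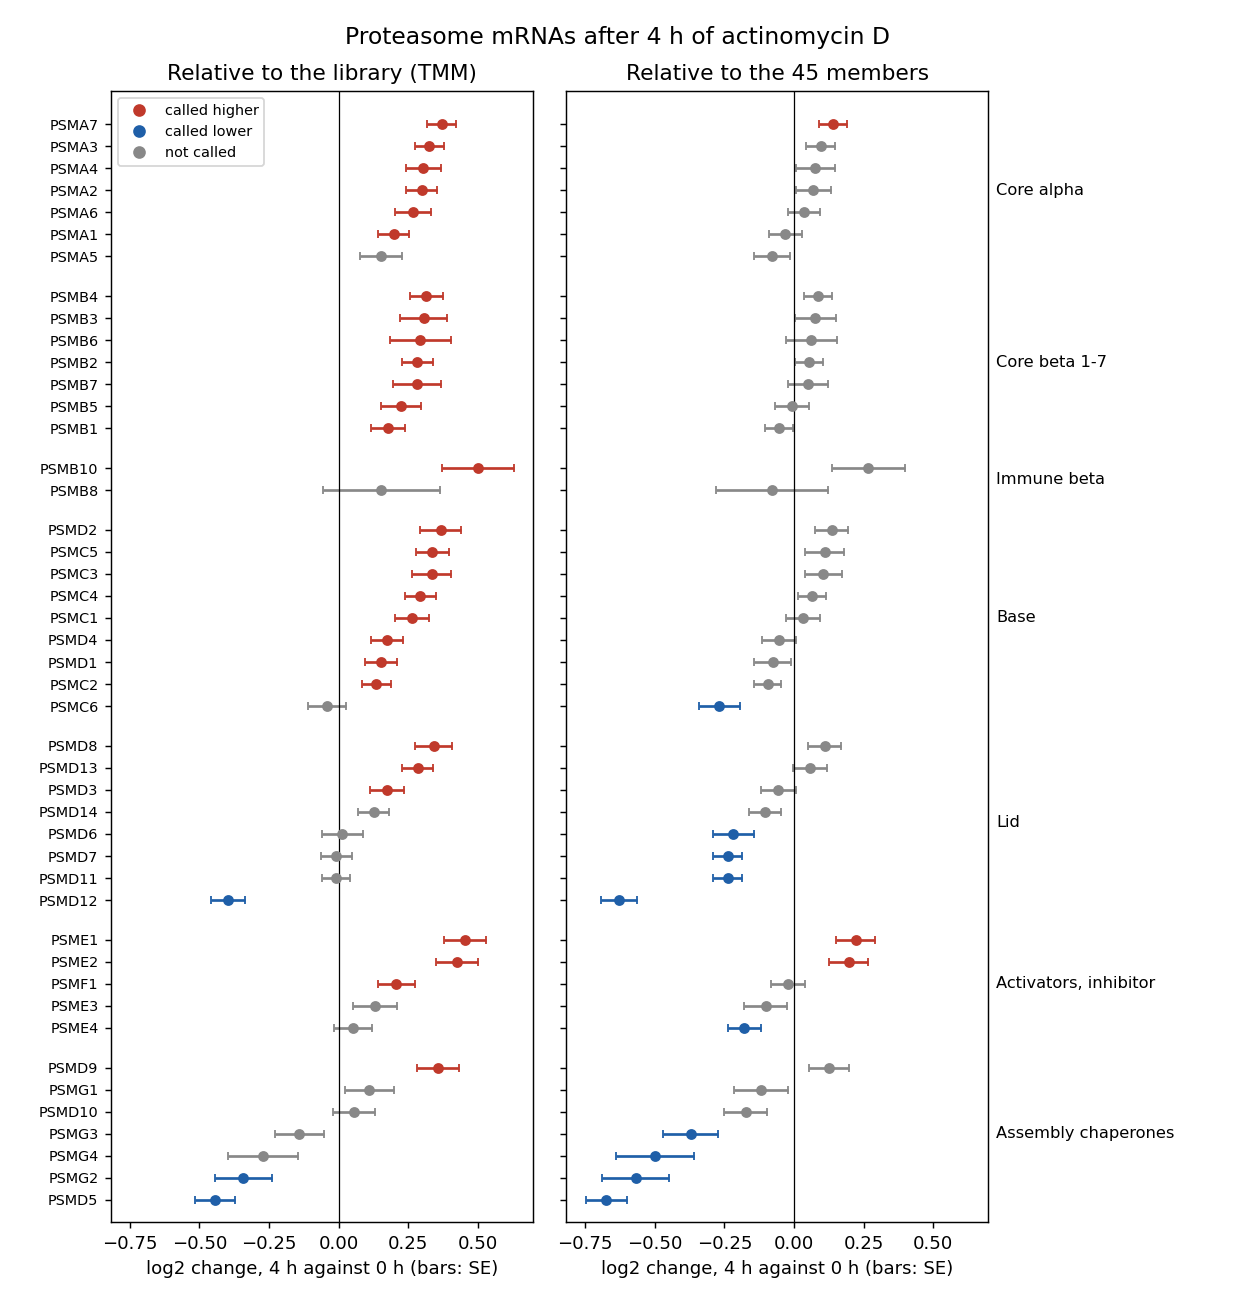
Log2 change at 4 h against 0 h of each of the 45 proteasome genes, grouped by class, with bars of 1 standard error; the left panel is scaled to the whole library by TMM and the right panel to the summed counts of the 45 genes. Most core, base and activator genes lie above 0 on the left under TMM scaling (below 0 for all but PSMB10, PSME1 and PSME2 when scaled to ribosomal protein mRNAs), while PSMD5, PSMD12, PSMG2 and PSMG4 lie lowest in both panels.

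The alpha subunits form the gated outer rings of the core particle. Called higher were 6 of 7 (85.7%, against 23.3% of all genes), with a median log2 change of 0.30 under TMM scaling that stayed positive with library totals. Scaled to ribosomal protein mRNAs, 10438 of all 12775 genes tested fell below 0, among them all 7 alpha subunits. PSMA7 rose the most among them and had 258, 259 and 263 CPM at 0 h, 255, 265 and 245 CPM at 1 h, 283, 275 and 291 CPM at 2 h and 343, 335 and 329 CPM at 4 h. The 3 libraries at 4 h lay above all 9 earlier ones. Its log2 change at 4 h was 0.37 ± 0.051 (SE), a 1.29-fold difference with an edgeR adjusted p of 6.767e-05. PSMA3 had 156, 146 and 147 CPM at 4 h, against 117, 122 and 119 CPM at 0 h, a log2 change of 0.33. PSMA5 had 217, 204 and 187 CPM at 4 h, against 190.3, 182 and 175 CPM at 0 h, and was not called (edgeR adjusted p = 0.1112). It was called higher once the replicate number was a term of the model (edgeR adjusted p = 0.001971). The remaining alpha genes, PSMA1, PSMA2, PSMA4 and PSMA6, had log2 changes of 0.20 to 0.30, and PSMA1 lost its call without 0 h replicate 2 (edgeR adjusted p = 0.051).

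All 7 standard beta subunits were called higher, where 23.3% of all genes were, with log2 changes of 0.18 to 0.31 under TMM scaling. Scaled to ribosomal protein mRNAs, 10438 of all 12775 genes tested were below 0, among them all 7 of these subunits. Active sites are carried by 3 of them. PSMB5, the chymotrypsin-like subunit and the main target of bortezomib, had 312, 282 and 288 CPM at 4 h, against 268, 237 and 251 CPM at 0 h. PSMB6, the caspase-like subunit, had 178, 151 and 148 CPM at 4 h, against 146, 122 and 121 CPM at 0 h. PSMB7, the trypsin-like subunit, had 275, 247 and 242 CPM at 4 h, against 234, 200.5 and 195 CPM at 0 h. The groups did not overlap in any of the 3. Their log2 changes were 0.22 ± 0.072, 0.29 ± 0.11 and 0.28 ± 0.085 (SE), with edgeR adjusted p-values of 0.02202, 0.04245 and 0.01615. Each of these calls ended without 0 h replicate 2, without 0 h replicate 3 or without 4 h replicate 1, where the adjusted p lay between 0.0726 and 0.1762. PSMB6 also lost its call when replicate 2 of 1 h or of 4 h, or replicate 2 or 3 of 2 h, was left out (edgeR adjusted p of 0.05401 to 0.07152). The other beta genes, which have no active site, were PSMB1, PSMB2, PSMB3 and PSMB4. PSMB4 had 464, 433 and 451 CPM at 4 h, against 384, 337 and 363 CPM at 0 h, and PSMB2 had 278, 255 and 266 CPM at 4 h, against 226, 215 and 216 CPM at 0 h. Both calls remained when any 1 library was left out, whereas PSMB3 lost its call without 0 h replicate 2 (edgeR adjusted p = 0.06242) and PSMB1 lost it in 5 such fits. The fits that left out libraries had no replicate term. With that term and all 12 libraries, all 7 standard beta genes were called higher, where 34.8% of all genes were.

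Immune beta subunits replace the active standard ones in cells exposed to interferon, and their mRNAs were scarce in these cells. Per kb of annotated transcript, PSMB8 had 8.73 CPM and PSMB10 had 13.6 CPM at 0 h, against 194.5 CPM for PSMB5 and 214 CPM for PSMB7, the standard subunits they replace. PSMB10 had the largest log2 change of all 45 genes, with 14.6, 16.2 and 18.8 CPM at 0 h, 16.2, 18.7 and 17.3 CPM at 1 h, 16.9, 18.8 and 15.0 CPM at 2 h and 25.4, 24.8 and 20.0 CPM at 4 h. All 3 values at 4 h lay above all 9 earlier values, the lowest of them by little. Relative to 0 h it was higher by 0.50 ± 0.13 on the log2 scale (SE) with an edgeR adjusted p of 0.006571, starting from 16.5 ± 2.09 CPM at 0 h (SD, n = 3), a level at which the SE was larger than for most of the 45 genes. PSMB8 had 13.9, 10.2 and 8.59 CPM at 4 h, against 11.0, 10.4 and 8.02 CPM at 0 h. Those groups overlapped, and PSMB8 was not called (0.15 ± 0.21 SE, edgeR adjusted p = 0.5773). The log2 ratio of PSMB10 to PSMB7 in the same library averaged -3.45 ± 0.14 at 4 h and -3.67 ± 0.31 at 0 h (SD, n = 3 each), and that of PSMB8 to PSMB5 averaged -4.78 ± 0.29 at 4 h and -4.69 ± 0.24 at 0 h. Both ratios overlapped between the times and were not tested. They compare mRNAs and do not measure how far immune subunits replaced standard ones in the proteasome. PSMB9 was too low for a ratio to be read.

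The base holds 6 ATPases named PSMC, which unfold the substrate, and the scaffold and ubiquitin-binding subunits PSMD1, PSMD2 and PSMD4. Of these 9 genes, 8 were called higher (88.9%, against 23.3% of all genes), with a median log2 change of 0.26 under TMM scaling. All 9 were below 0 when scaled to ribosomal protein mRNAs, as were 10438 of all 12775 genes tested. PSMD2, the scaffold that receives substrate carriers, took the most counts of the 45 genes and had 1015, 915 and 865 CPM at 4 h, against 769, 704 and 695 CPM at 0 h. The groups were well apart, with a log2 change of 0.37 ± 0.074 (SE, edgeR adjusted p = 0.001319). PSMC5 had 279.8, 277 and 303 CPM at 4 h, against 227, 218 and 236 CPM at 0 h, a log2 change of 0.34. PSMC3 had 496, 449 and 491 CPM at 4 h, against 389, 354 and 396 CPM at 0 h, a log2 change of 0.33. The exception was PSMC6, with 104, 113 and 109 CPM at 4 h, against 110.3, 111 and 114 CPM at 0 h, which overlapped. It was not called (-0.041 ± 0.067 SE, edgeR adjusted p = 0.64). PSMC2 was the call with the least margin (log2 change 0.13, edgeR adjusted p = 0.04894) and lost it in 11 of 12 fits that left out 1 library. PSMD1 and PSMD4 lost their calls in 7 and 4 of those fits.

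The lid did not move as a group under TMM scaling. Of its 8 genes, 3 were called higher, 1 lower and 4 neither, with a median log2 change of 0.069 under TMM scaling and -0.082 with library totals. With ribosomal protein scaling all 8 were below 0, with a median of -0.30, and 6 were called lower (75%). In that fit the median of all genes was -0.32, and 45.7% of them were called lower. The 3 higher ones were PSMD8, PSMD13 and PSMD3. PSMD8 had 297, 282 and 258 CPM at 4 h, against 233, 221 and 208 CPM at 0 h, a log2 change of 0.34 ± 0.068 (SE, edgeR adjusted p = 0.001178). PSMD13 had 129.9, 126 and 137 CPM at 4 h, against 109, 103 and 111 CPM at 0 h. PSMD3 lost its call in 6 of the 12 fits that left out 1 library, with adjusted p-values of 0.05083 to 0.1564. PSMD12, a structural subunit of the lid, went the other way, with 126, 133 and 123 CPM at 0 h, 125, 123 and 127 CPM at 1 h, 122, 119 and 123 CPM at 2 h and 100.4, 100.4 and 88.8 CPM at 4 h. Values at 4 h lay below all 9 earlier ones. Against 0 h the log2 change was -0.40 ± 0.061 (SE), which is 1.32-fold lower (edgeR adjusted p = 0.0001708). PSMD6, PSMD7 and PSMD11, further structural subunits, had log2 changes of 0.013, -0.0079 and -0.0087. PSMD7 had 184, 169.5 and 168 CPM at 4 h, against 174, 174 and 176 CPM at 0 h, and PSMD11 had 144, 138 and 135 CPM at 4 h, against 140.3, 141 and 137 CPM at 0 h. These groups overlapped. PSMD14, the deubiquitinase of the lid, had 248, 252 and 238 CPM at 4 h, against 216, 222 and 238 CPM at 0 h, and was called only with the replicate number in the model (edgeR adjusted p = 0.01061, against 0.07534 without it).

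Activators open the core particle in place of the regulatory particle, and PSMF1 encodes an inhibitor. PSME1 and PSME2, whose products form 1 ring-shaped activator, were next to PSMB10 at the top of the 45 genes. PSME1 had 85.5, 80.8 and 77.7 CPM at 0 h, 85.3, 86.3 and 81.9 CPM at 1 h, 98.8, 98.9 and 87.2 CPM at 2 h and 119, 114 and 101 CPM at 4 h. PSME2 had 71.0, 60.2 and 63.5 CPM at 0 h, 64.8, 69.8 and 60.4 CPM at 1 h, 76.1, 76.7 and 80.1 CPM at 2 h and 88.8, 89.2 and 83.5 CPM at 4 h. In both genes the 3 libraries at 4 h lay above all 9 earlier ones, and the values at 2 h lay above those at 0 h. The log2 changes at 4 h were 0.45 ± 0.075 and 0.43 ± 0.076 (SE), with edgeR adjusted p-values of 0.0003218 and 0.0005417. Scaled to ribosomal protein mRNAs they were 0.080 and 0.052, not called. The log2 ratio of PSME1 to PSME2 averaged 0.35 ± 0.072 at 4 h and 0.33 ± 0.084 at 0 h (SD, n = 3 each), which overlapped. PSMF1 had 141, 141 and 128 CPM at 4 h, against 123, 116 and 117 CPM at 0 h, with no overlap and an edgeR adjusted p of 0.02256, a call that ended without 0 h replicate 2 or 3 or 4 h replicate 1 or 2 (0.07301 to 0.098). PSME3, whose product is a nuclear activator, had 147, 147 and 127 CPM at 4 h, against 128, 138 and 119 CPM at 0 h. PSME4, the large activator that binds the core particle as a single chain, had 166, 146 and 145 CPM at 4 h, against 155, 146 and 140.3 CPM at 0 h. Both overlapped and were not called, though PSME3 was called higher with the replicate number in the model (edgeR adjusted p = 0.01545).

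The assembly chaperones had the lowest median of the classes. Of 7, 1 was called higher and 2 lower at 4 h, shares of 14.3% and 28.6% beside the 23.3% and 24.6% of all genes, so the count of lower calls was near that of genes in general. Their median log2 change was -0.14 under TMM scaling and lower still with library totals (-0.29) and with ribosomal protein scaling (-0.51). PSMD5, a chaperone that holds ATPases of the base during assembly, had the lowest log2 change of all 45 genes, with 87.1, 94.8 and 86.1 CPM at 0 h, 89.0, 80.9 and 78.2 CPM at 1 h, 82.0, 88.2 and 79.5 CPM at 2 h and 66.3, 67.8 and 62.9 CPM at 4 h. The 3 values at 4 h lay below all 9 earlier values. Its log2 change was -0.44 ± 0.072 (SE), which is 1.36-fold lower, with an edgeR adjusted p of 0.0002488. An antisense gene, PSMD5-AS1, had 56 to 110 counts in a library, against 585 to 1006 counts of PSMD5, and because no source used here gives the strand setting of the counting, their reads cannot be told apart.

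PSMG1 and PSMG2 encode a pair of chaperones that bind each other and start the alpha ring, and PSMG3 and PSMG4 encode a second such pair. PSMG2 had 37.0, 41.0 and 41.8 CPM at 0 h, 39.2, 39.4 and 44.3 CPM at 1 h, 39.2, 42.4 and 39.4 CPM at 2 h and 26.6, 35.5 and 32.3 CPM at 4 h. The values at 4 h lay below all earlier ones, with replicate 1 the lowest. Against 0 h this was a log2 change of -0.34 ± 0.10 (SE) at an edgeR adjusted p of 0.01566, and without 4 h replicate 1 the change was -0.24 and no longer called (edgeR adjusted p = 0.06616). Its partner PSMG1 had 63.7, 72.6 and 65.6 CPM at 4 h, against 57.2, 60.8 and 69.0 CPM at 0 h, which overlapped, and was not called (0.11 ± 0.088 SE). PSMG4 had 12.4, 12.4 and 13.9 CPM at 0 h, 9.21, 10.3 and 11.2 CPM at 1 h, 11.1, 12.9 and 10.6 CPM at 2 h and 9.52, 11.4 and 11.1 CPM at 4 h. The values at 4 h lay below those at 0 h but overlapped those at 1 h and 2 h, and per kb of transcript its level at 0 h was the lowest of the 4 PSMG genes. PSMG4 was called lower only with the replicate number in the model (log2 change -0.27 ± 0.13 SE, edgeR adjusted p = 0.03995, against 0.09243 without it). PSMG3 had 31.3, 28.7 and 32.3 CPM at 4 h, against 31.5, 37.4 and 32.8 CPM at 0 h, which overlapped. It shares its locus with PSMG3-AS1, which had 20 to 56 counts against 274 to 397 of PSMG3.

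The other chaperones of the base did not follow PSMD5. PSMD9 had 68.9, 65.9 and 59.1 CPM at 4 h, against 49.9, 47.8 and 53.8 CPM at 0 h, with no overlap and a log2 change of 0.36 ± 0.076 (SE, edgeR adjusted p = 0.001915); scaled to ribosomal protein mRNAs it was -0.015. PSMD10, also known as gankyrin, had 33.1, 32.9 and 32.7 CPM at 4 h, against 33.0, 31.2 and 30.8 CPM at 0 h, a log2 change of 0.055 that was not called. Differences between these chaperones were read from their separate changes and were not tested directly.

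**Figure D2:**
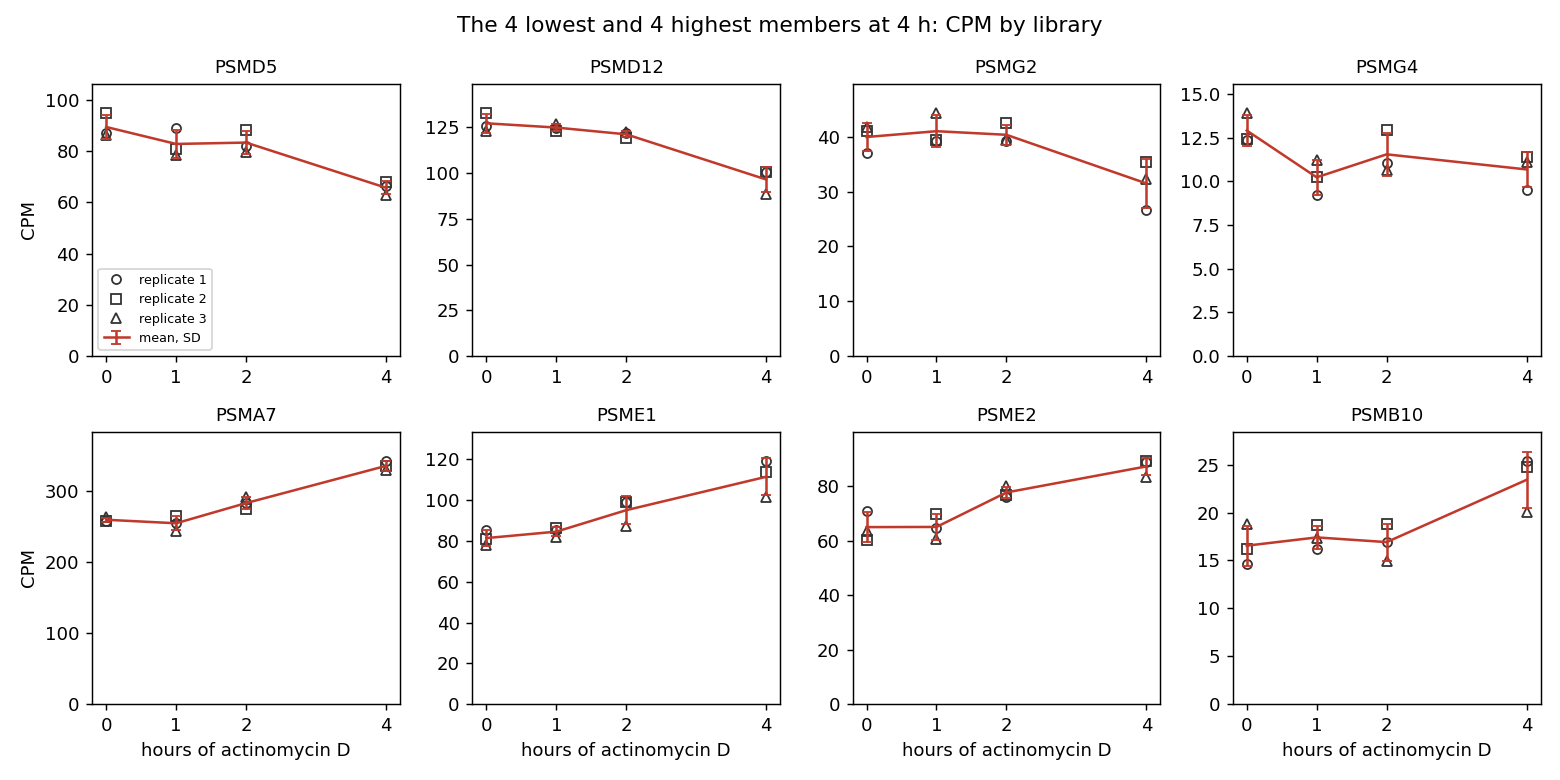
CPM in each of the 12 libraries against hours of actinomycin D for the 4 genes with the lowest and the 4 with the highest log2 change at 4 h; symbols are replicates, and lines and bars are the mean and SD of 3 libraries. PSMD5, PSMD12 and PSMG2 drop between 2 h and 4 h. PSMG4 has values at 1 h and 4 h below those at 0 h, and values at 2 h that overlap them. PSMA7, PSME1 and PSME2 climb from 2 h on under TMM scaling (with ribosomal protein scaling PSMA7 has a log2 change of -0.0020 at 4 h).

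To compare the 45 genes with each other rather than with the whole mRNA pool, libraries were also scaled to the summed counts of the 45 genes. In that fit 3 genes were called higher than the summed proteasome mRNA at 4 h and 10 lower, where 5.09% of all genes were called higher and 34.9% lower. The higher ones were PSME1 (0.22), PSME2 (0.20) and PSMA7 (0.14, all log2), with edgeR adjusted p-values of 0.02293, 0.04048 and 0.04161. Each of these 3 calls ended in several fits that left out 1 library (PSMA7 in 10 of 12, PSME2 in 6 and PSME1 in 3, with adjusted p-values of 0.05044 to 0.1415). The lower ones included 4 of the 7 assembly chaperones, PSMD5 (-0.67), PSMG2 (-0.57), PSMG4 (-0.50) and PSMG3 (-0.37), and 4 of the 8 lid genes, PSMD12 (-0.63), PSMD11 (-0.24), PSMD7 (-0.24) and PSMD6 (-0.22). PSMC6 (-0.27) and PSME4 (-0.18) completed them. No gene of the core particle was among the 10. The edgeR adjusted p-values were 7.588e-06 for PSMD5, 3.751e-06 for PSMD12, 0.002028 for PSMG2 and 0.008921 for PSMG3. PSMG4 and PSMC6 lost the call without 4 h replicate 1 (0.05581 and 0.05175), PSMD6 in 3 fits without 1 library (0.08156 to 0.1507) and PSME4 in 4 (0.08618 to 0.09955). With the replicate number in the model, 9 genes were called higher and 12 lower, where 13.1% and 44.9% of all genes were. The genes that gained a call there were PSMB4, PSMB10, PSMC3, PSMC5, PSMD2 and PSMD8, all higher, and PSMC2 and PSMD14, both lower.

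The make-up of the proteasome mRNA, which does not depend on how libraries are scaled, shifted slightly. Lid genes made up 15.2 ± 0.119% of all counts of the 45 genes at 4 h and 16.6 ± 0.332% at 0 h (SD, n = 3 each), and assembly chaperones 3.70 ± 0.184% at 4 h and 4.58 ± 0.235% at 0 h. Base genes made up 34.1 ± 0.195% at 4 h and 33.0 ± 0.206% at 0 h. The libraries of the 2 times did not overlap in these 3 classes. Alpha subunits, at 17.96 ± 0.308% at 4 h and 17.3 ± 0.46% at 0 h, standard beta subunits, at 20.9 ± 0.429% and 20.4 ± 0.812%, and activators, at 7.64 ± 0.278% and 7.71 ± 0.315%, overlapped between 4 h and 0 h. These shares are sums of counts, so abundant genes such as PSMD2 and PSMC3 weigh most in them, and they were not tested.

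**Figure D3:**
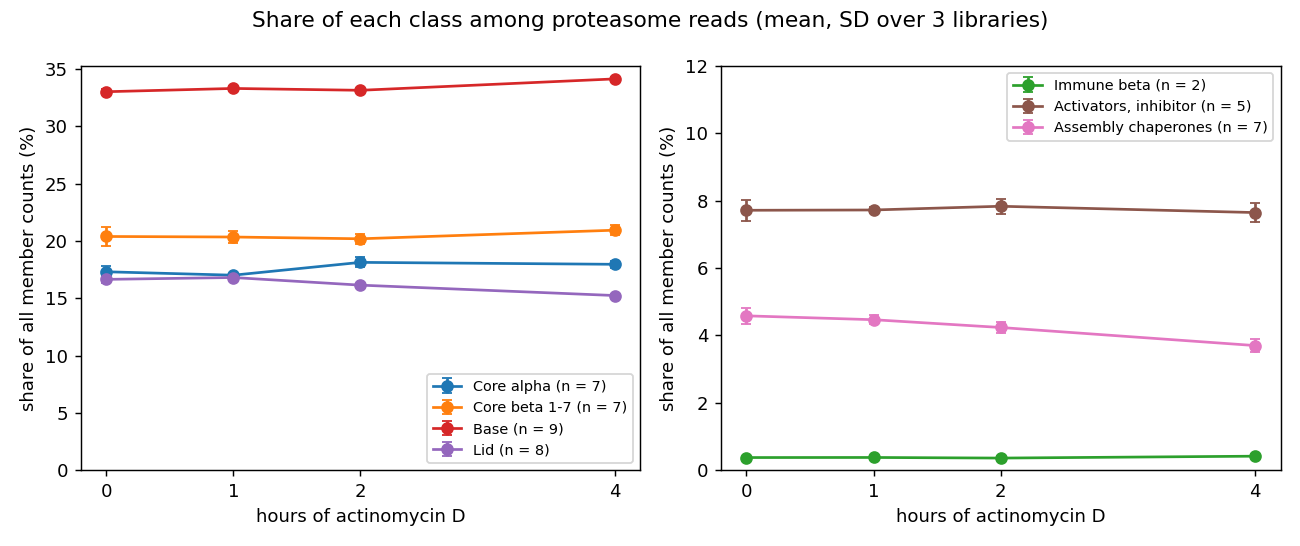
Share of each class in the summed counts of the 45 genes against hours of actinomycin D, as mean and SD of 3 libraries, with the larger classes in the left panel and the smaller in the right. The share of the assembly chaperones is 3.70% at 4 h, against 4.58% at 0 h, and that of the lid is 15.2% at 4 h, against 16.6% at 0 h.

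Few changes were called before 4 h. The comparisons of 1 h, 2 h and 4 h share the 0 h libraries. At 1 h no gene of the 45 was called in either direction by edgeR, where 0.172% of all genes were called higher and 1.16% lower. A single gene, PSMG4, had an unadjusted p under 0.05 there, and DESeq2 called none. At 2 h against 0 h, 7 genes were called higher and 0 lower, where 3.39% and 11.7% of all genes were, with 17 at an unadjusted p under 0.05 and DESeq2 calling 8 higher and 0 lower. The 7 were the alpha subunits PSMA2, PSMA3, PSMA4 and PSMA6, the ATPase PSMC1, the deubiquitinase PSMD14 and the activator PSME2, with log2 changes of 0.18 to 0.26 under TMM scaling. Only PSMA3 kept its call in every fit that left out 1 library, the count in those fits being 1 to 7, and with ribosomal protein scaling 0 of 45 were called in either direction, where 0.196% of all genes were called higher and 17.2% lower. PSMA3 had 142, 142 and 144 CPM at 2 h, against 117, 122 and 119 CPM at 0 h (log2 change 0.26, edgeR adjusted p = 0.004055). With the replicate number in the model, 20 genes were called higher at 2 h and 0 lower, where 15.9% and 19.5% of all genes were, and the 20 included all 7 alpha subunits, 5 of 9 base genes, 3 of 7 standard beta subunits, 3 of 5 activators and inhibitors, 2 of 8 lid genes and 0 of 7 assembly chaperones.

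A change of rate, the log2 change between 2 h and 4 h minus that between 0 h and 2 h, was called by edgeR in 0 of the 45 genes in either direction, where 0.384% of all genes were called higher and 0.227% lower, and 4 had an unadjusted p under 0.05. The model with the replicate number called 2 higher and 4 lower, or 4.44% and 8.89%, where 7.39% and 5.46% of all genes were, shares not far apart. It gave PSMC3 (0.23) and PSMD8 (0.22) a positive change of rate, and PSMD11 (-0.27), PSMD12 (-0.26), PSMD14 (-0.23) and PSME4 (-0.30) a negative one. In PSMD11, PSMD14 and PSME4 the mean level was highest at 2 h. PSME4 had 167, 167 and 164 CPM at 2 h, against 166, 146 and 145 CPM at 4 h and 155, 146 and 140.3 CPM at 0 h. PSMD11 had 153, 157 and 149 CPM at 2 h, against 144, 138 and 135 CPM at 4 h. The libraries at 2 h and 4 h overlapped in PSMD14 and PSME4 and did not in PSMD11.

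The levels of the 45 mRNAs at 0 h spread widely. They did so also among the standard alpha and beta subunits, each of which enters the core particle in the same number of copies. Per kb of the annotated transcript, the highest at 0 h were PSMB4 at 375 CPM, PSMA7 at 261 CPM and PSMC3 at 240.3 CPM. Assembly chaperones ran from 15.4 CPM for PSMG4 to 28.9 CPM for PSMG1, below all standard core subunits, of which PSMA5 was the lowest at 48.9 CPM. These levels depend on which annotated transcript is taken as the one in use.

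The transcripts of the 45 genes were described from GENCODE release 29 on GRCh38, 1 annotated transcript per gene. Their 3′ UTRs had a median length of 316 bases, against 1134 bases for 11667 genes tested, and their coding sequences had G or C at 56.9% of the third positions of codons, against 58.5%. Across the 45 genes the log2 change at 4 h had a Spearman correlation of 0.40 with that share of G or C, against 0.24 across the 11667 genes, and of -0.44 with 3′ UTR length, against -0.25. These are descriptions across genes measured in the same libraries, and they depend on which annotated transcript was taken. That of PSME3 has a 3′ UTR of 0 bases, so the searches below could find no match in it. That of PSMA4 has a 3′ UTR of 3475 bases. The 10 genes below the summed proteasome mRNA had a median of 45.2% for the same share and a median 3′ UTR of 762.5 bases, but PSMG3 and PSMG4 had 78.9% and 81.5%, the highest of the 45.

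**Figure D4:**
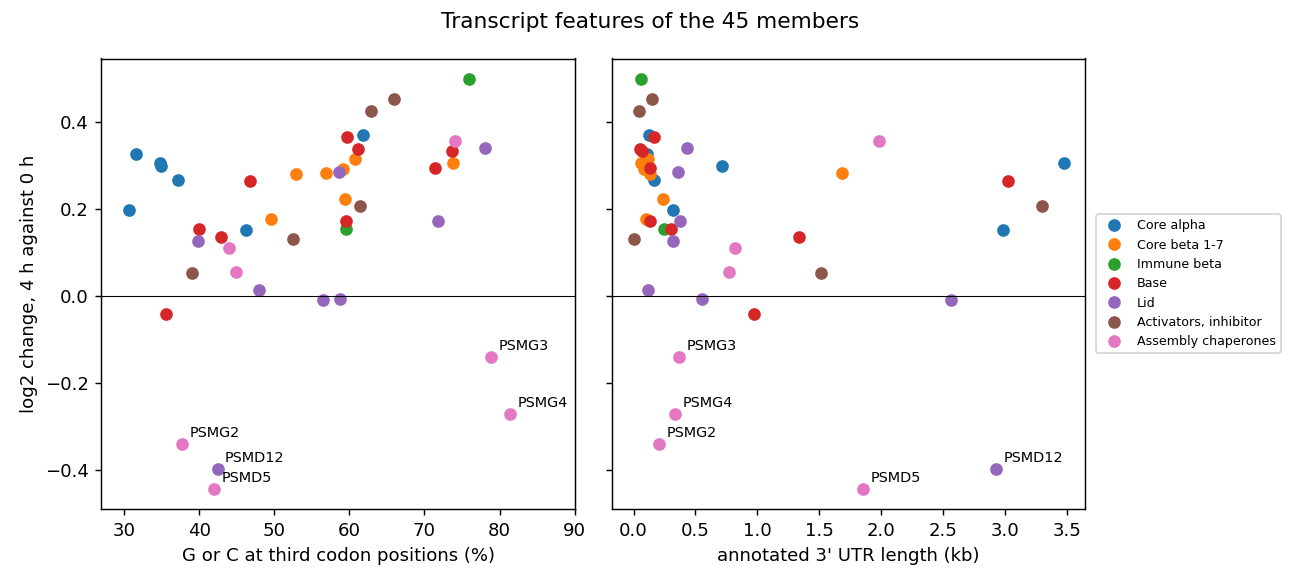
Log2 change at 4 h against 0 h under TMM scaling for each of the 45 genes against the percentage of codons with G or C in the third position (left) and the annotated 3′ UTR length in kb (right), coloured by class. PSMD5, PSMD12 and PSMG2 lie at the lower left of the left panel, and PSMG3 and PSMG4 lie low although their coding sequences are rich in G and C.

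Pumilio proteins bind TGTANATA in 3′ UTRs and speed mRNA decay. The motif was searched on the sense strand of the 3′ UTR, and 5 of the 45 genes held it (11.1%), against 28.1% of the 11667 genes. Per kb of 3′ UTR, which is shorter in the 45 genes, the rates were closer, at 0.168 and 0.243 matches. The 6 matches are shown because they include PSMD12 and PSMG4, which are among the lowest genes at 4 h. Of the 5 genes, only PSMD12 was called lower at 4 h under TMM scaling without the replicate term. Each is written 5′ to 3′ as RNA-sense DNA, with the motif in capitals, from the annotated transcript sequence; the counts themselves were made on another build.
PSMD12, chr17:67338992-67339021, minus strand: tattgttaacaTGTAAATAaaattggagct
PSMG4, chr6:3267747-3267776, plus strand: tacaatgtacgTGTAAATAaatggattgaa
PSMA2, chr7:42917001-42917030, minus strand: gagatacattaTGTAAATAaataaacaatg
PSMC2, chr7:103368758-103368787, plus strand: aaaaaaatattTGTACATAtgatctaattt
PSMA5, upstream site, chr1:109401873-109401902, minus strand: taaatgatgtcTGTACATAaaggcagttct
PSMA5, downstream site, chr1:109399125-109399154, minus strand: aaatattttaaTGTAAATAtcgggttgggt
PSMD12 and PSMG4 carry the same TGTAAATA as PSMA2, which was called higher at 4 h (log2 change 0.30 under TMM scaling, -0.073 with ribosomal protein scaling). PSMD5 and PSMG2, which were called lower together with PSMD12 under TMM scaling, held no match. A match is a string of letters and does not show that a protein binds there. The pentamer ATTTA, a mark of AU-rich elements, was in the 3′ UTR of 21 of the 45 genes (46.7%), against 70.4% of the 11667, or 1.9 against 2.3 copies per kb. It was in 8 copies in PSMD12 and none in PSMG2, PSMG3 and PSMG4, while PSMF1, which was called higher under TMM scaling, had 9 and PSMA5, which was not called, had 8.

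The pathway around the proteasome was followed in a list of 36 further genes, all of which were tested. They stand for ubiquitin, its carriers and the factors that build, control or modify the proteasome. The exception is TXNL4B, a splicing protein that was also on the list. At 4 h against 0 h, 12 were called higher and 11 lower, or 33.3% and 30.6% beside 23.3% and 24.6% of all genes, with a median log2 change of 0.063 under TMM scaling and -0.31 with ribosomal protein scaling, where none was called higher. Without 0 h replicate 3 the higher count was 7. The replicate term gave 16 higher and 11 lower, where 34.8% and 30.8% of all genes were, and the 4 added were UBE3C, UBQLN1, UCHL5 and VCP. UBA1, the ubiquitin-activating enzyme, had 864, 772 and 764 CPM at 4 h, against 634, 580.0 and 591 CPM at 0 h, without overlap, a log2 change of 0.41 ± 0.073 (SE, edgeR adjusted p = 0.0005162). UFD1L, a cofactor of the segregase that pulls ubiquitin-tagged proteins from complexes, had 139.8, 131 and 131 CPM at 4 h, against 112, 93.7 and 104 CPM at 0 h (0.38, edgeR adjusted p = 0.001515). With ribosomal protein scaling neither was called.

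Genes that control or build the proteasome went both ways. NFE2L1, a transcription factor that drives proteasome genes, had 422, 401 and 419 CPM at 4 h, against 364, 337 and 369.8 CPM at 0 h, a log2 change of 0.21 ± 0.053 (SE, edgeR adjusted p = 0.005094) under TMM scaling and -0.16 with ribosomal protein scaling. POMP, the chaperone that matures the core particle, and USP14, a deubiquitinase bound to the proteasome, were also called higher, with log2 changes of 0.27 and 0.17 (edgeR adjusted p of 0.01464 and 0.02673) under TMM scaling that were -0.10 and -0.20 with ribosomal protein scaling. POMP lost its call in 4 of the 12 fits that left out 1 library and USP14 in 5.

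Other regulators fell. AKIRIN2, which brings proteasomes into the nucleus, had 7.82, 5.96 and 7.74 CPM at 4 h, against 26.8, 28.6 and 25.2 CPM at 0 h, a log2 change of -1.90 ± 0.12 (SE, edgeR adjusted p = 7.821e-08). ZFAND5, a zinc finger protein that stimulates the proteasome, had 86.9, 75.2 and 78.3 CPM at 4 h, against 198, 197 and 174 CPM at 0 h (-1.24). NFE2L2, a transcription factor of the oxidative stress response, had 66.5, 67.7 and 84.9 CPM at 4 h, against 144, 150.4 and 151 CPM at 0 h (-1.03). In these 3 genes the libraries at 4 h lay below those at 0 h without overlap. The other scalings lowered log2 changes further, so they could not turn these directions. DDI2, the protease that activates NFE2L1, had 5.89, 7.11 and 6.04 CPM at 4 h, against 10.2, 8.67 and 8.46 CPM at 0 h (-0.52, edgeR adjusted p = 0.005859). Also lower were the splicing protein TXNL4B (-0.71), the ubiquitin shuttle UBQLN2 (-0.62) and the ubiquitin ligase UBE3A (-0.50). So were the proteasome-bound thioredoxin TXNL1 (-0.42), KIAA0368 (-0.28), whose product is a proteasome adaptor, and FAF2 (-0.14). FAF2 was called with an edgeR adjusted p of 0.04168 and lost the call in 7 of the 12 fits that left out 1 library, and KIAA0368 in 3 of them. None of the 45 proteasome genes reached the log2 falls of AKIRIN2, ZFAND5 or NFE2L2, the lowest being -0.44 in PSMD5.

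**Figure D5:**
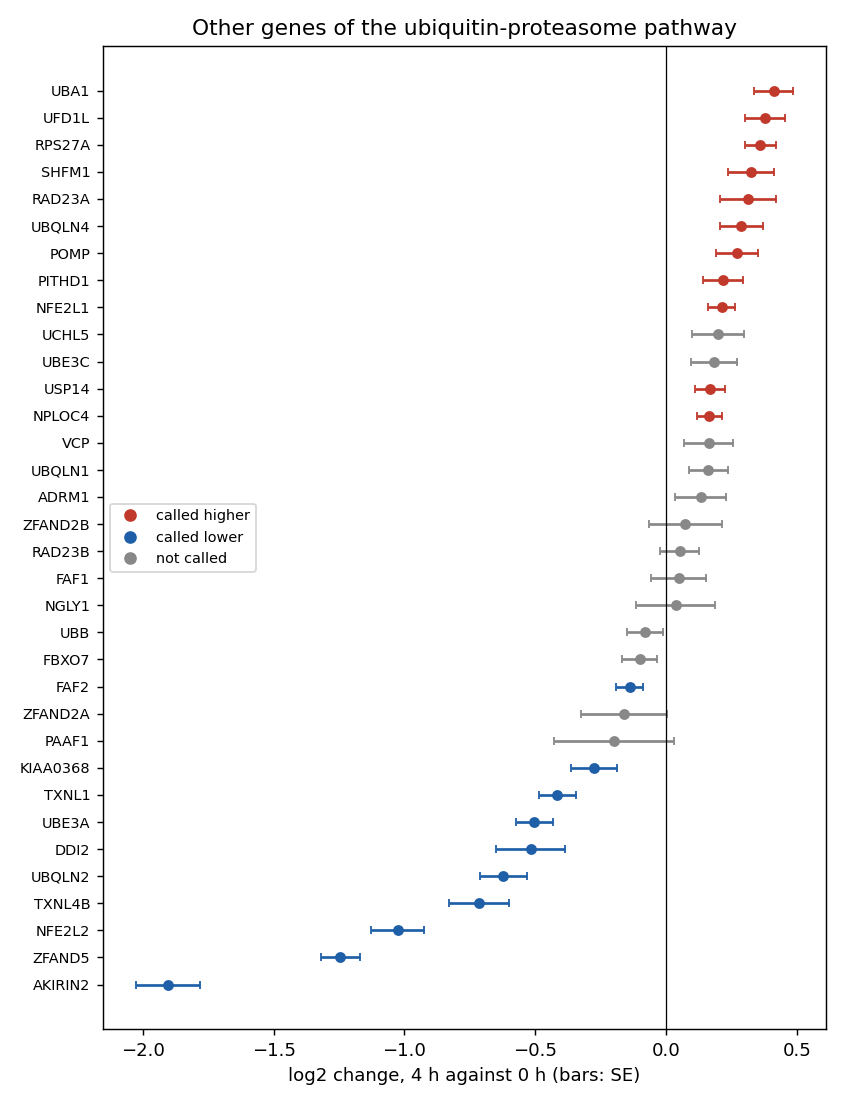
Log2 change at 4 h against 0 h under TMM scaling of 34 of the 36 pathway genes outside the PSM symbols, with bars of 1 standard error, coloured by call. AKIRIN2, ZFAND5 and NFE2L2 lie lowest, and UBA1 and UFD1L highest at 0.41 and 0.38 (none called higher with ribosomal protein scaling).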

How the data were processed

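Per the labels' protocols, a stranded TruSeq mRNA kit gave the 12 libraries. The authors deposited raw counts per gene symbol, made with FastQC, STAR and build hg19, per the submitters' processing notes. The counting program, annotation and strand setting are not given in the sources used here, so reads of antisense partners and of pseudogene copies, which PSME2 and PSMC1 among others have, could be shared or split. The table had 12 value columns, all mapped to libraries by title, and 7175 genes had no count.

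From the deposited counts, edgeR 4.0.16 under R 4.3.3 gave all tests (filterByExpr, TMM, quasi-likelihood test on 4 time groups over all 12 libraries, Benjamini-Hochberg over 12775 genes). All 45 proteasome genes passed the filter. Standard errors are the log2 change over the square root of F. DESeq2 1.42.0, other scalings (library totals, the summed counts of 75 tested ribosomal protein genes, DESeq2 size factors), other filters, a replicate term and fits without single libraries were tried. The script was checked on simulated data, where 42 of 50 genes with a log2 change of -1 and 38 of 50 with a change of 1 were called at 4 h against 0 h, but 13 of 47 with a change of -0.5 and 18 of 50 with a change of 0.5. The simulation left 12438 of 12643 genes unchanged, so it did not test the scaling, and its rates need not hold for these data. The fit scaled to the 45 genes used their summed counts as library sizes.

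Totals of 9381855 to 10929000 counts limit precision for low genes such as PSMB8. Replicates are called biological in the labels, seeded in plates, and p-values measure the spread between them. No pair was identical (chi-square per degree of freedom 4.13 to 15.2). Replicate numbers, shared by the times in the labels, paired the libraries: deviations from group means correlated at 0.369 to 0.494 for replicate 1, 0.263 to 0.336 for replicate 2 and 0.575 to 0.649 for replicate 3, against -0.501 to 0.160 between numbers. The fit with that number as a block term is given where it changed a call of a proteasome gene at 4 h, and as counts elsewhere. Fits that left out libraries had no such term.

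The genes, their classes and the pathway list were chosen with earlier results of these data known. Values per library are given for the 4 highest and 4 lowest genes, for active-site subunits, chaperones, activators and genes called in the fit scaled to the 45, and for some others chosen after their values were seen. Pathway genes are named when called lower at 4 h or among the 3 highest, except for 2 genes of the list, which are counted but not reported here; NFE2L1, POMP, USP14 and the 4 added by the replicate term were chosen after their values were seen.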

Additional observations from a re-analysis of the deposited data

How the results depend on the processing

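Scaling decided the direction of most calls, and every direction beside TMM values above is relative to the library. Counts in this section stand without the share of all genes called in the same fit. They show how a setting moved the counts and do not set the proteasome or pathway genes apart from genes in general. With ribosomal protein scaling and no replicate block, 45.7% of all genes were called lower at 4 h. At 4 h, library totals gave 11 genes higher and 8 lower, and 8 lower with the replicate block as well; ribosomal protein scaling gave 0 higher and 20 lower, and 0 and 23 with the replicate block. At 2 h the count of higher genes was 2 with no filter, 20 with the replicate block, 1 with library totals, 11 with both and 0 with ribosomal protein scaling with or without the block, and the block gave 1 lower with library totals and 6 lower with ribosomal protein scaling. For the change of rate, the block gave 2 higher and 4 lower, 1 and 7 with library totals, and 12 lower with ribosomal protein scaling. In the fit scaled to the 45 genes, 1 was higher with no filter and 9 with the replicate block, which left the other counts within 1.5 times. Of the 36 pathway genes, library totals called 4 higher (7 with the block) and ribosomal protein scaling 0 higher and 19 lower (0 and 28 with the block). DESeq2 called 23 higher and 3 lower at 4 h.

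Leaving out 1 library gave 18 to 28 higher and 2 to 3 lower at 4 h, 1 to 7 higher at 2 h, and 0 to 3 higher and 7 to 10 lower in the fit scaled to the 45 genes. The 18 came without 0 h replicate 2. At 2 h, 2 genes were higher when 0 h replicate 1 or 2 or 2 h replicate 3 was left out, 4 when 0 h replicate 3 or 2 h replicate 1 was, 1 when 2 h replicate 2 was and 3 when 4 h replicate 2 was. In the scaled fit, leaving out 0 h replicate 3 or 4 h replicate 1 or 2 gave 0 higher, and leaving out 0 h replicate 2, 2 h replicate 2 or 4 h replicate 3 gave 1. Leaving out all libraries of a replicate number gave 14 to 25 higher and 2 to 3 lower at 4 h, 0 to 4 higher at 2 h, and 0 to 2 higher and 3 to 8 lower in the scaled fit. Of the pathway genes, 7 to 12 were higher and 9 to 11 lower without 1 library, the 7 without 0 h replicate 3, and 4 to 10 higher and 9 to 10 lower without a replicate number.

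The log2 changes at 4 h that turned negative with ribosomal protein scaling, without and with the replicate block where these differ, were -0.17 in PSMA1, -0.073 in PSMA2, -0.045 and -0.047 in PSMA3, -0.066 and -0.065 in PSMA4, -0.22 in PSMA5, -0.10 and -0.11 in PSMA6, -0.0020 and -0.0024 in PSMA7, -0.20 in PSMB1, -0.089 in PSMB2, -0.066 and -0.064 in PSMB3, -0.057 and -0.055 in PSMB4, -0.15 in PSMB5, -0.080 and -0.078 in PSMB6, -0.092 and -0.089 in PSMB7, -0.11 in PSMC1, -0.24 in PSMC2, -0.037 in PSMC3, -0.078 in PSMC4, -0.034 and -0.035 in PSMC5, -0.22 in PSMD1, -0.32 in PSMD10, -0.087 in PSMD13, -0.25 in PSMD14, -0.0059 and -0.0071 in PSMD2, -0.20 in PSMD3, -0.20 in PSMD4, -0.36 in PSMD6, -0.032 in PSMD8, -0.015 and -0.017 in PSMD9, -0.24 in PSME3, -0.32 in PSME4, -0.17 and -0.16 in PSMF1, -0.26 in PSMG1, -0.16 in NFE2L1, -0.10 in POMP and -0.20 in USP14. PSMB8, called in neither fit, was at -0.22 with both. PSMC2 was at -0.016 with library totals, with or without the block, and PSMD7 at 2 h was at -0.13 with ribosomal protein scaling and the block. PSMA5 was called lower only with the block and ribosomal protein scaling. Without the block, ribosomal protein scaling put the median of all genes at -0.32 at 4 h and -0.12 at 2 h. Library totals put it at -0.096 at 4 h.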
